A study of Mus musculus with 8 samples.

Results

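Nitrogen released from amino acids leaves the mammalian liver as urea or as glutamine, and the genes of both routes were followed here in single nuclei of 8 mouse livers. The set holds 10 genes named by symbol among the 32285 genes of each count table, and all 10 were found. They fall into a pericentral set of 4 (Glul, Oat, Slc1a2 and Rhbg) and a periportal set of 6 (Cps1, Ass1, Arg1, Gls2, Hal and Sds). All mice were male, of the genotype given as 129A1/SvIm and C57BL/6J cross mice and known as DIAMOND mice, a cross that develops fatty liver disease and liver tumours on a Western diet of high fat with sugar water, and all had received that diet. The WD tumour mice (n = 3) were fed it for 48 weeks and carried hepatocellular carcinoma (HCC). The other 2 groups were switched to standard chow after 36 weeks (RD, reverse diet). HCC developed in the RD tumour mice (n = 2), and none was detectable in the RD tumour-free mice (n = 3). Age is not used, since an end point of 48 weeks of age in the labels disagrees with a diet begun at 2 months of age and kept for 48 weeks. Each library comes from 1 mouse, no transgene or deletion is named, and the labels do not say whether the sampled piece of liver held tumour tissue.

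Blood flows through the liver lobule from the portal tract to the central vein, and hepatocytes along that path divide the work of nitrogen disposal between them. Periportal and mid-lobular hepatocytes release ammonia from amino acids and fix it in the urea cycle, which has a high capacity and a low affinity. A thin layer of pericentral hepatocytes takes up the ammonia and glutamate that escape and turns them into glutamine, and this layer depends on Wnt signals from the central vein.

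The libraries held between 17948627 and 34363108 unique molecular identifiers (UMIs, each a tagged RNA molecule) per mouse. Of 80575 barcodes, the 79446 with at least 300 detected genes were taken as nuclei, between 6048 and 20000 per mouse, with a median of 1120 to 2656 UMIs per nucleus. Any pair of mice shared 0.124 to 0.676% of its barcodes. RD tumour 1 stood apart: the median Spearman correlation of its gene levels with the other mice was 0.848, against 0.940 to 0.972 for the other 7, and it held exactly 20000 barcodes. The RD tumour group is therefore 1 typical and 1 atypical library, and values are given for each mouse. Levels are CPM, the UMIs of a gene per 1000000 UMIs of the summed library, and were also computed within nuclei of clusters named hepatocyte-like from 12 marker genes. These made up 5.10% and 19.2% of nuclei in RD tumour 1 and 2, 23.9 to 37.9% in RD tumour-free and 18.5 to 25.5% in WD tumour, while 13.9 to 74.7% of the nuclei of a mouse stayed unnamed. A whole-library level thus also moves with the share of hepatocyte nuclei, and fewer such nuclei and less RNA per nucleus cannot be told apart in it. The naming was not scaled to depth, so the shares given are not those of all hepatocytes. Hepatocyte-like nuclei had medians of 3512 to 5900 UMIs, and unnamed ones 712 to 1489.

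Glul encodes glutamine synthetase, the enzyme that makes glutamine from glutamate and ammonia, and lies at chr1:153899944-153909723 on the plus strand (all positions are from GENCODE M21 on GRCm38, and each member is annotated there as protein-coding). Its whole-library level was 70.5 and 219 CPM in the RD tumour mice. In RD tumour-free it was 207, 257 and 254 CPM, and in WD tumour 346, 245 and 240 CPM. RD tumour 1 was lowest of the 8 mice, and the other 7 lay within 207 to 346 CPM. The WD tumour mice were all above both RD tumour mice, a log2 difference of 0.99 ± 0.47 (SE) that did not pass edgeR's quasi-likelihood test over all genes (unadjusted p = 0.071, adjusted p = 0.590). Within hepatocyte-like nuclei, Glul was at 84.4 and 342 CPM in RD tumour, 301, 283 and 276 CPM in RD tumour-free and 354, 402 and 287 CPM in WD tumour, so that the groups overlapped in all 3 comparisons. At 500 UMIs per nucleus, a Glul UMI was found in 3.73 to 12.6% of hepatocyte-like and 3.90 to 14.2% of endothelial-like nuclei, with the hepatocyte-like share the lower one in RD tumour 1, RD tumour-free 3 and WD tumour 1.

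Slc1a2 encodes a plasma membrane glutamate carrier that supplies the pericentral cells, and lies at chr2:102658659-102790784 on the plus strand. It was at 21 and 263 CPM in the RD tumour libraries, 126, 302 and 277 CPM in RD tumour-free and 220, 168 and 178 CPM in WD tumour. RD tumour 1 was lowest, the other 7 mice lay within 126 to 302 CPM, and no comparison passed the test. Slc1a2 spanned 14.4-fold between the lowest and the highest whole library, against 4.92-fold for Glul. Within hepatocyte-like nuclei the levels were 52.7 and 462 CPM, then 212, 400.5 and 348 CPM, and then 328, 327 and 269 CPM in the same order of groups. The WD tumour against RD tumour-free difference there was −0.12 ± 0.69 (unadjusted p = 0.87, adjusted p = 1.00, edgeR), and it turned to 0.39 when a stricter marker threshold of 2 left out a cluster of 574 nuclei in RD tumour-free 3 with Slc1a2 and Lgr5 among its leading genes.

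Rhbg encodes an ammonia channel of the cell surface and lies at chr3:88242874-88254709 on the minus strand. It was close to the limit of detection, with 61 to 154 UMIs in a whole library. Its level was 1.95 and 3.31 CPM in RD tumour, 3.23, 2.69 and 3.76 CPM in RD tumour-free, and 5.18, 6.84 and 4.47 CPM in WD tumour. In whole libraries, all 3 WD tumour mice were above all 5 mice returned to chow. The log2 difference was 0.71 ± 0.36 from RD tumour-free (unadjusted p = 0.084, adjusted p = 1.00) and 1.09 ± 0.41 from RD tumour (unadjusted p = 0.030, adjusted p = 0.590) by edgeR. Within hepatocyte-like nuclei Rhbg was at 1.44 and 4.87 CPM in RD tumour, 3.41, 2.76 and 2.78 CPM in RD tumour-free and 4.24, 6.98 and 4.15 CPM in WD tumour. There RD tumour 2 was above WD tumour 1 and 3, so the order by diet was not kept. The ratio of its level in hepatocyte-like nuclei to that in endothelial-like nuclei, which should lack it, ranged from 0.741 to 2.54 and was above 1 in 3 of 8 mice.

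Oat encodes ornithine aminotransferase, which turns ornithine towards glutamate and proline in the pericentral cells, and lies at chr7:132557478-132576398 on the minus strand. It was the member with the clearest order of groups within hepatocyte-like nuclei, at 387 and 203 CPM in RD tumour, 79.4, 112 and 64.7 CPM in RD tumour-free and 59.9, 51.2 and 51.8 CPM in WD tumour. The group means were 295 ± 130 CPM (SD, n = 2), 85.3 ± 24.1 CPM (SD, n = 3) and 54.3 ± 4.89 CPM (SD, n = 3). The 3 groups did not overlap: both RD tumour mice were above every other mouse, and the WD tumour mice were below every other mouse. Oat was higher in RD tumour than in RD tumour-free by 1.6 ± 0.33 on the log2 scale (unadjusted p = 0.0014, adjusted p = 0.306), lower in WD tumour than in RD tumour-free (−0.70 ± 0.30, unadjusted p = 0.049, adjusted p = 1.00) and lower in WD tumour than in RD tumour (−2.30 ± 0.33, unadjusted p = 0.00015, adjusted p = 0.333). None of these passed edgeR's test at an adjusted p of 0.05. DESeq2 on the same sums gave 1.65 with an adjusted p of 0.0036 and −2.34 with an adjusted p of 9.7e-06 for the comparisons with RD tumour, and −0.69 with an adjusted p of 1.00 for WD tumour against RD tumour-free. DESeq2 called 4.36%, 3.17% and 0.243% of all genes in those comparisons, in that order. Without RD tumour 1 the edgeR difference of RD tumour 2 alone from RD tumour-free was 1.15 (adjusted p = 0.99), and without RD tumour 2 that of RD tumour 1 alone was 1.84 (adjusted p = 0.0062), in a fit that called 35.3% of all genes.

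The level of Oat outside hepatocyte-like nuclei bears on how these values can be read. In whole libraries Oat was at 198 and 176 CPM in RD tumour, 84.6, 157 and 101 CPM in RD tumour-free and 119, 54.2 and 74.5 CPM in WD tumour, so that only the comparisons with RD tumour were free of overlap. In endothelial-like nuclei Oat was at 114 and 115 CPM in RD tumour, 54.7, 207 and 174 CPM in RD tumour-free and 199, 51.5 and 94.3 CPM in WD tumour. It was higher in hepatocyte-like than in endothelial-like nuclei in 3 of 8 mice, RD tumour 1 and 2 and RD tumour-free 1, with ratios from 0.301 to 3.4 over all mice. With every nucleus thinned to 500 UMIs, an Oat UMI was found in 16.1% of hepatocyte-like against 5.73% of endothelial-like nuclei in RD tumour 1 and in 8.67% against 7.15% in RD tumour 2. In WD tumour 1 and 3 the shares were 2.89% against 10.3% and 2.74% against 5.89%, and in RD tumour-free 2 and 3 they were 5.45% against 9.56% and 3.31% against 8.29%. In RD tumour-free 1 and WD tumour 2 they were 3.21% against 2.51% and 3.07% against 1.95%. In 4 mice the hepatocyte-like share of Oat was thus below the endothelial-like one, as the Glul share was in 3 mice. Whether endothelial-like nuclei express Oat or Glul themselves was not tested, and no expression is read from the share alone. Within the hepatocyte-like nuclei of those 4 mice, Oat and Glul were found together with log2 odds ratios (0 is independence) of 0.81 and 1.59 in RD tumour-free 2 and 3 and 0.56 and 1.59 in WD tumour 1 and 3. The part of free RNA in the Oat levels was not tested. The unthinned shares in hepatocyte-like nuclei were 57.7% and 36.0% in RD tumour, 21.2 to 42.1% in RD tumour-free and 20 to 26.4% in WD tumour, at median depths of 3512 to 5900 UMIs against 1008 to 2070 in endothelial-like nuclei. Only 35.0% of Oat UMIs (median over mice) came from hepatocyte-like nuclei, against 43.1% of all UMIs and 57.9 to 68.0% for Glul and Slc1a2.

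**Figure D1:**
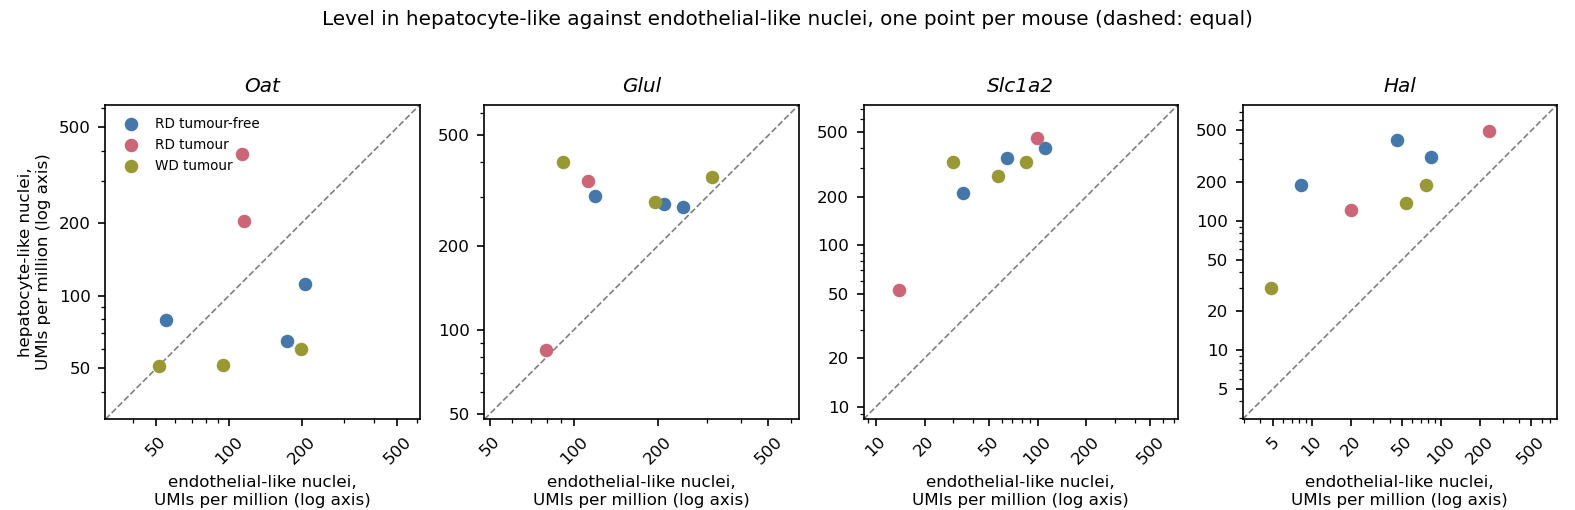
Level in hepatocyte-like nuclei (vertical axis, CPM) against endothelial-like nuclei (horizontal axis, CPM) for Oat, Glul, Slc1a2 and Hal, 1 point per mouse, coloured by group, on log axes with the line of equal levels. Slc1a2 and Hal lie above the line in 8 of 8 mice, while Oat lies above it in 3 of 8.

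Cps1 encodes carbamoyl phosphate synthetase, the mitochondrial entry step of the urea cycle, and lies at chr1:67123026-67231259 on the plus strand. Its whole-library level was 1672 and 2291 CPM in RD tumour, 2220, 3314 and 3551 CPM in RD tumour-free and 3417, 1046 and 3806 CPM in WD tumour. WD tumour 2 was lowest, and the 3 groups overlapped in every whole-library comparison. Within hepatocyte-like nuclei both RD tumour mice, at 3306 and 3039 CPM, were below the RD tumour-free mice at 3945, 4518 and 4269 CPM, a log2 difference of −0.60 ± 0.56 (unadjusted p = 0.32, adjusted p = 0.613, edgeR).

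Ass1 and Arg1 encode the next cytosolic steps that the set holds, the joining of citrulline with aspartate and the release of urea from arginine. Ass1, at chr2:31470207-31520672 on the plus strand, was at 615 and 492 CPM in RD tumour, 206, 649.7 and 369 CPM in RD tumour-free and 520.3, 176 and 787 CPM in WD tumour. The lowest mice were RD tumour-free 1 and WD tumour 2, and the groups overlapped. Arg1, at chr10:24915221-24927484 on the minus strand, was at 479.7 and 622 CPM, then 399, 615 and 771 CPM, and then 555, 294 and 546 CPM. Arg1 was the steadiest member, with the highest library 2.62-fold above the lowest, and 1.83-fold within hepatocyte-like nuclei. There the RD tumour mice (796 and 764 CPM) were above the WD tumour mice (677, 485 and 669 CPM), a log2 difference of −0.23 ± 0.34 for WD tumour against RD tumour, smaller than its standard error.

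Gls2, Hal and Sds release ammonia from amino acids. Gls2, liver glutaminase, lies at chr10:128194457-128210004 on the plus strand and was at 60.4 and 252 CPM in RD tumour, 88.1, 168 and 104 CPM in RD tumour-free and 93.3, 24.2 and 134 CPM in WD tumour. Hal, histidine ammonia-lyase, lies at chr10:93488768-93519304 on the plus strand and was at 55.0 and 425 CPM in RD tumour, 104, 304 and 275 CPM in RD tumour-free and 108, 17.3 and 153 CPM in WD tumour. Hal varied most of all members, 24.6-fold between WD tumour 2 and RD tumour 2. Sds, serine dehydratase, lies at chr5:120476526-120483932 on the plus strand and was at 286 and 355 CPM in RD tumour, 182, 485 and 364 CPM in RD tumour-free and 289.8, 40.7 and 562 CPM in WD tumour. WD tumour 2 was the lowest mouse for all 3 genes, and RD tumour 2 was the highest for Gls2 and Hal.

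Within hepatocyte-like nuclei Hal was at 120.3 and 494 CPM in RD tumour, 189, 426 and 314 CPM in RD tumour-free and 138, 30.3 and 191 CPM in WD tumour. Its difference between WD tumour and RD tumour-free was the widest of the periportal members there, −1.43 ± 0.77 on the log2 scale (unadjusted p = 0.10, adjusted p = 1.00, edgeR). Without WD tumour 2 it was −0.96 (unadjusted p = 0.20). Gls2 ranged over 6.58-fold in these nuclei and Sds over 10.9-fold, from 69.9 CPM in WD tumour 2 to 764 CPM in WD tumour 3.

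**Figure D2:**
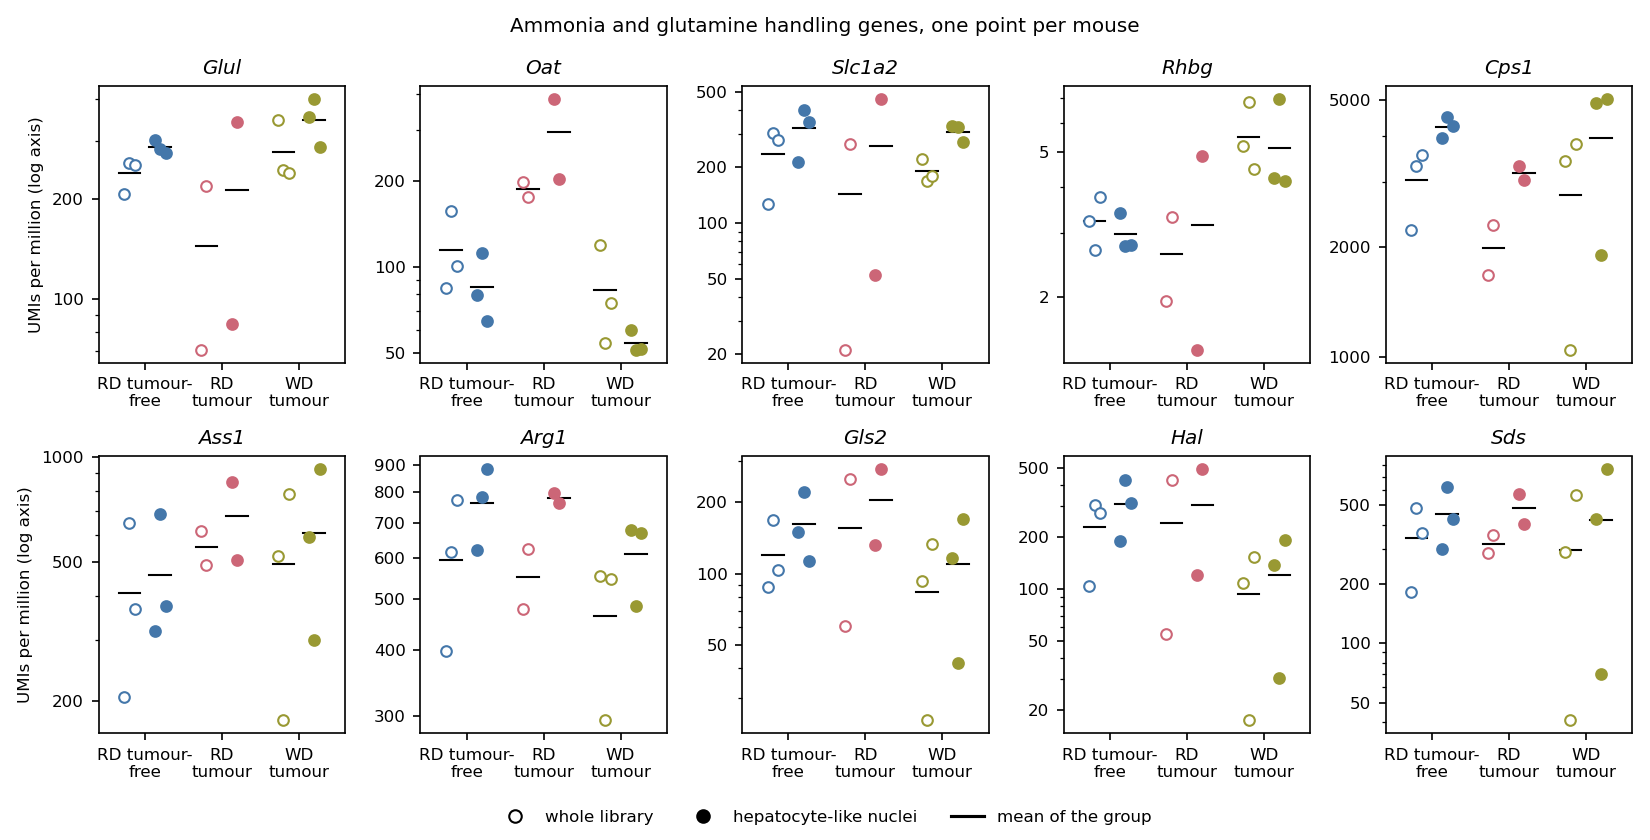
Level of each of the 10 members in each mouse (CPM, log axis), 1 panel per gene, coloured by group, for whole libraries (open points) and hepatocyte-like nuclei (filled points), with the group mean as a line. Among the open points WD tumour 2 is lowest for the 6 periportal members and Oat, and RD tumour 1 is lowest for Glul, Slc1a2 and Rhbg.

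All 10 of the lowest whole-library levels fell on 2 mice, 7 on WD tumour 2 and 3 on RD tumour 1. WD tumour 2 had the lowest level of 6 of 6 periportal members and of Oat, in whole libraries and again in hepatocyte-like nuclei. Over all genes tested, that mouse was lowest for 7.15% in whole libraries and 9.52% in hepatocyte-like nuclei. The low levels did not extend to most of the 19 tested genes of the periportal zone list, which include Gls2. Of these, WD tumour 2 was lowest for 6 in whole libraries and for 4 in hepatocyte-like nuclei, and highest for 2 and 3. RD tumour 1 was lowest for 7 and 8 of them. Its Glul and Slc1a2 levels, 402 and 327 CPM in hepatocyte-like nuclei, were within the range of the other mice or above it. Summed levels of the 8 erythroid markers in its hepatocyte-like nuclei were 9035 CPM against 311 to 3963 CPM in the others, and their part in the low periportal levels was not tested. Without WD tumour 2, the WD tumour against RD tumour-free difference turned from −0.18 to 0.22 for Cps1 and from −0.25 to 0.27 for Sds in whole libraries, and that of Hal fell in size from −1.35 to −0.85.

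RD tumour 1 had the lowest level of 3 of 4 pericentral members, Glul, Slc1a2 and Rhbg, and the highest level of the fourth, Oat, in both sets of nuclei. That mouse was the lowest for 35.9% and the highest for 30.7% of all genes tested in whole libraries, so an extreme value there is common. Among 20 other genes of the pericentral zone it was lowest for 17 in whole libraries and for 12 in hepatocyte-like nuclei. Summed neutrophil markers (10 genes) in its hepatocyte-like nuclei were 1913 CPM against 9.34 to 287 CPM in the other mice, summed endothelial markers 572 against 66.9 to 182 CPM, and summed hepatocyte markers 10596 against 15921 to 25685 CPM, and their part in the levels was not tested. With RD tumour 1 as the only RD tumour mouse, edgeR called Glul lower than in RD tumour-free (−1.8, adjusted p = 0.025), and Slc1a2 likewise (−3.54, adjusted p = 0.019), in whole libraries, assuming that the lone mouse varies as the other groups do. That fit called 23.0% of all genes, so a call in it is common. With RD tumour 2 as the only RD tumour mouse, the same differences were −0.26 and 0.020 (adjusted p = 1.00 for both). In RD tumour 2, the markers of pancreatic acinar cells summed to 399 CPM in the whole library against 3.55 to 10.0 CPM in the others.

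Over all genes, edgeR called 0 of 19087 genes in whole libraries in each of the 3 comparisons (percentage called 0), and 0 of 15638 in hepatocyte-like nuclei. At an unadjusted p under 0.05 it picked 1279 genes (6.70%) for RD tumour against RD tumour-free, 524 (2.75%) for WD tumour against RD tumour-free and 1443 (7.56%) for WD tumour against RD tumour in whole libraries. The corresponding numbers in hepatocyte-like nuclei were 2148 (13.7%), 435 (2.78%) and 2283 (14.6%). Members at that unadjusted level numbered 0, 0 and 2 (Oat and Rhbg) of 10 in whole libraries and 1, 1 and 1 (Oat each time) in hepatocyte-like nuclei. Groups did not overlap for 16.7%, 10.7% and 21.4% of all genes in whole libraries, and for 1 (Oat), 1 (Rhbg) and 3 (Glul, Rhbg and Oat) of the 10 members. In hepatocyte-like nuclei the groups did not overlap for 24.1%, 12.4% and 29.4% of all genes and for 2 members in each comparison. These were Oat and Cps1, then Rhbg and Oat, and then Oat and Arg1. These member counts are near the shares over all genes. Leaving out RD tumour 2 raised the calls to 4569 and 4438 genes in the whole-library comparisons with RD tumour, and leaving out RD tumour 1 gave 11 and 0.

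**Figure D3:**
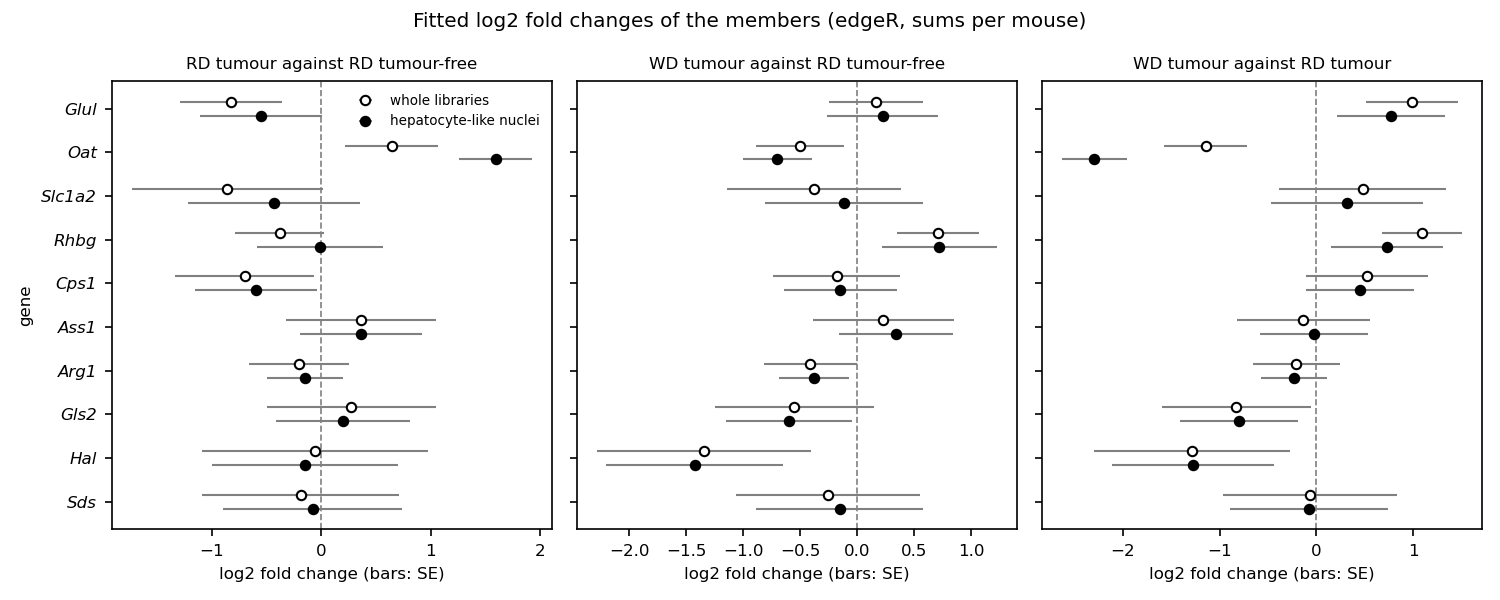
Log2 fold change of each member (horizontal axis, points with bars of 1 standard error from edgeR) in the 3 comparisons, for whole libraries and hepatocyte-like nuclei. Oat in hepatocyte-like nuclei lies farthest from 0 in units of its error, at 1.6 and −2.30 in the comparisons with RD tumour.

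Detection of the 2 sets in the same nucleus was then counted, with each nucleus thinned to 500 UMIs, a depth that all 79446 nuclei reached. A nucleus was pericentral-positive with at least 1 UMI of Glul, Oat, Slc1a2 or Rhbg, and periportal-positive with at least 1 UMI of Gls2, Hal or Sds. Pericentral-positive nuclei made up 12.2% and 21.2% of nuclei in RD tumour, 12.4, 24.3 and 21.7% in RD tumour-free and 29.5, 15.3 and 18.4% in WD tumour. Periportal-positive nuclei made up 15.7% and 26.7%, then 9.65, 26.8 and 22.9%, and then 16.2, 2.18 and 20.8%. WD tumour 2 was again lowest for the periportal share. The difference in pericentral-only nuclei was −0.232 percentage points between the 5 tumour-bearing and the 3 tumour-free mice (exact two-sided permutation p = 1.00) and 3.08 points between Western diet and chow (p = 0.39, exact permutation). For periportal-only nuclei the differences were −3.57 points by tumour status (p = 0.57) and −6.91 points by diet (p = 0.21), by the same exact permutation test.

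Nuclei positive for both sets were 1.93% and 4.68% in RD tumour, 0.555, 4.48 and 3.42% in RD tumour-free and 4.57, 0.226 and 3.16% in WD tumour, between 0.464 and 1.01 times the share expected if the sets were independent. The log2 odds ratio of detecting one set given the other was 0.016 and −0.45 in RD tumour, −1.29, −0.89 and −0.82 in RD tumour-free and −0.11, −0.62 and −0.42 in WD tumour. A value below 0 means that nuclei with RNA of one zone held RNA of the other less often than under independence. All 3 tumour-free mice were below all 5 tumour-bearing mice, a mean difference of 0.69 (exact two-sided permutation p = 0.036, the smallest that 5 against 3 mice allow, and 0.29 after Benjamini-Hochberg adjustment over the 8 tests of this kind). By diet the difference was 0.31 (exact permutation p = 0.36, adjusted p = 0.79). By tumour status, diet is mixed within the tumour-bearing mice: among mice returned to chow the 2 tumour-bearing mice were above the 3 others, a split whose smallest possible p is above 0.05.

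Without thinning, the log2 odds ratio over all nuclei was 0.51 and 0.27 in RD tumour and 0.21, 0.093 and 0.11 in WD tumour. In RD tumour-free it was 0.16, −0.0079 and −0.27, so that the sign over all nuclei depended on thinning in most mice. Over all nuclei thinned to 1000 UMIs the order by tumour status was not kept (difference 0.45, exact permutation p = 0.14), nor was it within hepatocyte-like nuclei. There the log2 odds ratio was −0.24 and −2.26 in RD tumour, −2.57, −1.64 and −1.82 in RD tumour-free and −0.81, −2.00 and −1.54 in WD tumour, below 0 in 8 of 8 mice. The difference by tumour status was 0.64 (exact permutation p = 0.32, adjusted p = 0.82). Endothelial-like nuclei, read in the same way as a background, held RNA of the pericentral set in 9.52 to 26.2% and of the periportal set in 1.08 to 14.6%, with odds ratios from −1.93 to 0.65. Hepatocyte-like nuclei held the pericentral set less often than endothelial-like ones in WD tumour 1 (20.2% against 26.2%). RD tumour-free 3 and WD tumour 3 (14.6% against 15.6%) gave the same order, and the other mice the reverse. Where the hepatocyte-like share was the lower one, pericentral detection did not mark hepatocyte-like nuclei above this background. The periportal share was higher in hepatocyte-like nuclei in every mouse. The share of nuclei that were hepatocyte-like was higher in RD tumour-free (23.9 to 37.9%) than in RD tumour, and overlapped that of WD tumour (18.5 to 25.5%). The part of this share in the difference over all nuclei was not tested.

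**Figure D4:**
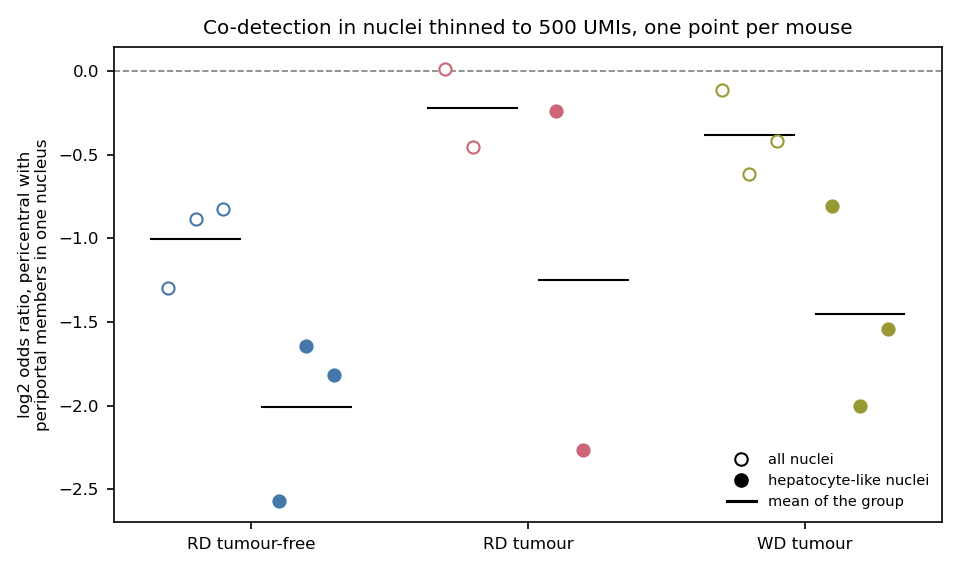
Log2 odds ratio of detecting the pericentral and the periportal set in the same nucleus (vertical axis; 0 is independence), 1 point per mouse, by group, for all nuclei and for hepatocyte-like nuclei thinned to 500 UMIs. All hepatocyte-like values lie below 0, and the RD tumour-free mice are lowest over all nuclei but not within hepatocyte-like nuclei.

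Gene by gene, the zones separated most for Slc1a2. A pair was scored in a mouse only where at least 5 hepatocyte-like nuclei with both genes were expected, and log2 odds ratios are given as the median over those mice, as a description. Glul and Slc1a2 were found together with 3.75 (2.82 to 3.98 in 7 mice), the highest pair of the set. Glul with Oat gave 1.37 and Oat with Slc1a2 1.77, above 0 in 7 of 7 and 4 of 4 mice. Against the periportal genes, Slc1a2 gave −3.31 with Cps1, −2.85 with Hal, −2.63 with Gls2 and −2.53 with Sds. Glul gave −2.72 with Cps1 and −1.88 with Arg1, and Ass1 was the periportal member least separated from either, at −0.97 with Glul and −1.03 with Slc1a2. Oat was closer to the middle, at −1.07 with Cps1, with values above 0 in RD tumour 1 (0.52) and WD tumour 1 (0.51).

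The periportal genes were found together more weakly than the pericentral pair. Hal with Sds gave 1.57 (above 0 in 7 of 7 mice), Gls2 with Hal 1.24 (6 of 6), and Cps1 gave 1.08 with Arg1, 1.05 with Hal and 0.90 with Sds (8 of 8 mice each). Ass1 with Arg1 gave 0.29, also above 0 in 8 of 8 mice. RD tumour 1 departed from this pattern across the zones, with −0.31 for Glul and Cps1, 1.16 for Glul and Arg1, 0.53 for Slc1a2 and Cps1 and 0.87 for Slc1a2 and Arg1. In that mouse the 1020 hepatocyte-like nuclei held Glul in 3.73% and Slc1a2 in 2.45% of nuclei at 500 UMIs, so these values rest on few nuclei. Rhbg was found in 1 to 7 hepatocyte-like nuclei per mouse at this depth, too few to place it.

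**Figure D5:**
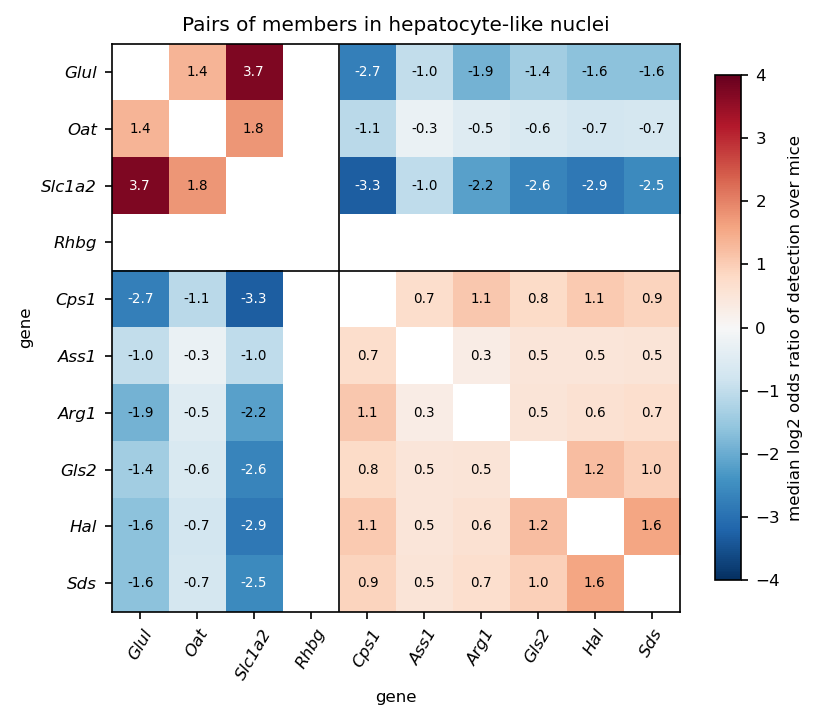
Median over mice of the log2 odds ratio of detection for each pair of members in hepatocyte-like nuclei at 500 UMIs, red above 0 and blue below, shown where at least 3 mice gave a value. Glul, Slc1a2 and Oat form one block and the 6 periportal genes another, with the lowest values between Slc1a2 and Cps1.

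Over all genes, the 5 most often found in the same nuclei as each member were ranked among 5285 genes detected in at least 1% of thinned nuclei of every mouse. All nuclei were used, so that nuclei of 1 cell type also raise the value. For Glul they were Lhpp (median log2 odds ratio 1.8 over 8 mice), Tox (1.06), Aldh3a2 (0.88), Airn (0.88) and Akr1c6 (0.71). For Oat they were Apoa2 (1.18), Apoe (1.03), the mitochondrial genes mt-Atp6 (0.96) and mt-Co2 (0.92), and Trf (0.91). Apoa2, Apoe and Trf encode plasma proteins. Cps1 went with Gm20528, Nrg4, Gm47719, Dpyd and Kynu (1.79 to 1.59). Sds went with Gldc (1.49), Dpyd, Slc25a51, Nrg4 and Ftcd, Arg1 with Dpyd (0.99), Cps1, Gm20528, Errfi1 and Gldc, and Ass1 with Gldc (0.57), Gm34667, Nrg4, Cps1 and Gramd1c. Gls2, Hal and Slc1a2 reached the 1% limit in 7 of 8 mice and Rhbg in 0, so no genes are named for these 4.

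Start-site sequence was available for 5 members (Glul, Oat, Slc1a2, Ass1 and Hal), as the 250 bases before the RefSeq start on GRCm38.p6. The 4 below are the members most sharply split between the zones for which a sequence was at hand, with Oat, the member with the clearest order of groups. Written 5′ to 3′ on the gene's own strand, capitals mark matches on either strand to TCF/LEF (CTTTGAT), C/EBP (TTGCNNAA), the cAMP response element core (TGACGT) or the TATA box (TATAAA), and no matches overlap.
Glul: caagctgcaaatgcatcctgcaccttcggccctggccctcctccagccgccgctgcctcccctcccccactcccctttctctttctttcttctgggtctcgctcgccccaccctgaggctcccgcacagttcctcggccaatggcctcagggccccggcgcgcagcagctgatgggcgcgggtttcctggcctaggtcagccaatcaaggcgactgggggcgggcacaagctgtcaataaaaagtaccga
Slc1a2: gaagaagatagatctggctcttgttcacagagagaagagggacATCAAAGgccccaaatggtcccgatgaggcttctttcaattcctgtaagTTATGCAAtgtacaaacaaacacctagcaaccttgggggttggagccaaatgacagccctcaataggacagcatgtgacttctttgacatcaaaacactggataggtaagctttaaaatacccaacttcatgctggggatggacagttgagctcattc
Oat: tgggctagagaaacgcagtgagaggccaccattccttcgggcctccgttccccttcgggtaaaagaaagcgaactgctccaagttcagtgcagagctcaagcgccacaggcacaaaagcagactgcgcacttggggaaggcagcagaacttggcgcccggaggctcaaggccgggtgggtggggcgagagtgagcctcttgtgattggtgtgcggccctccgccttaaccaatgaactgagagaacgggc
Hal: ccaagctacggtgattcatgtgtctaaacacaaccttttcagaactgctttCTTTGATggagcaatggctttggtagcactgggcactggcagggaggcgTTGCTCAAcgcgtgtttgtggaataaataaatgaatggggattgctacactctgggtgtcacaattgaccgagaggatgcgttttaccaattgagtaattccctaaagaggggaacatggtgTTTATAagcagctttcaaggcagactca
The windows are chr1:153899679-153899928 (Glul), chr2:102706188-102706437 (Slc1a2), chr7:132576399-132576648 (Oat, minus strand) and chr10:93488518-93488767 (Hal).

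The Slc1a2 window lies inside the Slc1a2 gene of GENCODE, because RefSeq places this start downstream of the outermost one, and 29 of its bases are exonic. The Glul window overlaps exons annotated to Teddm2 and Mir8114, the Oat window lies in an intron of Fgfr2, and the Hal window overlaps no annotated gene. A TCF/LEF match was present in Slc1a2, 207 bases before the start, and in Hal, 199 bases before, a sequence held by 3.21% of 32817 promoters of this length. A C/EBP match stood 158 bases before the Slc1a2 start and 150 bases before that of Hal (9.57% of promoters). The TATA box letters were matched on the opposite strand only (TTTATA on the gene's own), 28 bases before the start of Hal (12.4% of promoters, either strand). The cAMP core, in 6.46% of promoters, was in none of the windows, and the Glul, Oat and Ass1 windows held none of these letters. Slc1a2 and Hal, seldom found in the same nuclei, both held the TCF/LEF and C/EBP letters. Glul and Oat were GC-rich (64.8% and 60% of bases) and Slc1a2 and Hal were not (44.8% and 45.6%).

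The pathways of the members were read from 7 lists of 134 genes, none of which held a gene past the edgeR threshold, as for all genes. The lists also hold the members, so their counts are not independent of the values above. Cps1, Ass1 and Arg1 are in the urea cycle list, and Gls2, Hal and Sds in that of ammonia-releasing enzymes. Slc1a2 and Rhbg are among the carriers, Glul and Oat in the glutamine list, and Gls2 also in the periportal list. Of 10 tested genes of the urea cycle and its carriers, 4 were above 0 and 6 below in whole libraries for RD tumour against RD tumour-free (median log2 fold change −0.31, against 0.0034 over all genes). Car5a, which supplies bicarbonate to Cps1, was at 6.78 and 61.3 CPM in RD tumour, 33.4, 77.1 and 110.1 CPM in RD tumour-free and 105, 39.0 and 121 CPM in WD tumour. Otc, which joins carbamoyl phosphate with ornithine, was at 31.1 and 141 CPM, then 87.5, 148 and 184 CPM, and then 176, 70.0 and 216 CPM. Both were lowest in RD tumour 1, and the next lowest mice were RD tumour-free 1 and WD tumour 2 for Car5a and WD tumour 2 and RD tumour-free 1 for Otc. Asl, which splits argininosuccinate, was at 85.6 CPM in WD tumour 2 against 332 to 753 CPM in the others.

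Of 30 enzymes that release ammonia or break down amino acids, 23 were below 0 for WD tumour against RD tumour-free in whole libraries, with a median of −0.28 against −0.0070 over all genes. WD tumour 2 was lowest for 12 of them, RD tumour 1 for 15, and RD tumour 2 was highest for 10. Got1, the cytosolic aspartate aminotransferase, was at 1368 and 422 CPM in hepatocyte-like nuclei of RD tumour, 274, 311 and 78.9 CPM in RD tumour-free and 142, 132 and 135 CPM in WD tumour. Its log2 difference was 1.82 ± 0.61 for RD tumour against RD tumour-free (unadjusted p = 0.018, adjusted p = 0.317, edgeR).

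Among 17 tested carriers in hepatocyte-like nuclei, Slc25a22, a mitochondrial glutamate carrier, showed the same order of mice by group as Oat. It was at 268 and 247 CPM in RD tumour, 112, 143 and 68.7 CPM in RD tumour-free and 53.4, 54.1 and 55.5 CPM in WD tumour, with no overlap between groups. Its log2 differences were 1.08 ± 0.30 (unadjusted p = 0.0076, adjusted p = 0.306), −1.04 ± 0.28 (unadjusted p = 0.0060, adjusted p = 1.00) and −2.12 ± 0.31 (unadjusted p = 0.00014, adjusted p = 0.333), in the order used above for Oat. Slc25a15, the mitochondrial ornithine carrier that feeds the urea cycle, was at 120 and 217 CPM, then 131, 164 and 83.8 CPM, and then 77.4, 90.4 and 79.6 CPM.

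Of 14 tested genes of glutamine, proline and polyamine synthesis and use, which include Glul and Oat, 12 were above 0 for RD tumour against RD tumour-free in whole libraries (median 0.36). RD tumour 1 was highest for 11 of the 14. Among 20 other pericentral genes, 18 were above 0 for WD tumour against RD tumour-free in hepatocyte-like nuclei, with a median of 0.43 against −0.024 over all genes, and 16 of 20 in whole libraries (median 0.35). Rnf43, a target and inhibitor of Wnt signalling, was at 161, 239 and 202 CPM in WD tumour and 95.9, 95.9 and 92.5 CPM in RD tumour-free in these nuclei, with 17.7 and 162 CPM in RD tumour. Tbx3, another Wnt target, was at 42.1, 105 and 67.1 CPM in WD tumour and 47.8, 35.0 and 23.8 CPM in RD tumour-free, with 19.7 and 79.4 CPM in RD tumour. For WD tumour against RD tumour-free, the log2 difference of Rnf43 was 1.02 ± 0.67 (unadjusted p = 0.16, edgeR). That of Tbx3 was 0.96 ± 0.56 (unadjusted p = 0.13, edgeR), and neither gene passed the threshold. Of the 4 pericentral members, 2 were above 0 and 2 below in that comparison, and the difference from the list was not tested. Of 19 tested genes of the periportal zone, 8 were above and 11 below 0 there (median −0.31), and of 19 tested hormone and nuclear regulators, 7 were above and 12 below (median −0.093).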

How the data were processed

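Single-nucleus RNA was measured in snap-frozen livers with 10x 3′ chemistry, per the labels. The authors deposited raw UMI counts per gene and barcode, made with Cell Ranger 7.0.0, per the submitters' processing notes, which name mm10. The handling of intronic reads is not given in the sources used here. Groups come from the sample labels. Members and lists were chosen with earlier results of these data known.

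Barcodes with at least 300 genes were kept, with 17948627 to 34363108 UMIs per mouse. Doublets were called with Scrublet in scanpy 1.11.5 (2.98 to 10.2% of nuclei) and removed only as an alternative. Each mouse was clustered alone (2000 variable genes, 30 components, 20 neighbours, Leiden resolution 1). Clusters were named from fixed markers by their mean log2 ratio to the mouse's median cluster (at least 1, and 0.5 above the next class, from at least 3 markers), or for hepatocyte-like clusters by a 1.75-fold marker sum. That sum was of UMIs per nucleus, not scaled to depth. A hepatocyte-like cluster also needed a median mitochondrial percentage no higher than that of its mouse. The 1.75-fold threshold was lowered from 2 after the cluster tables were seen, because 2 left out a pericentral cluster of 574 nuclei. Co-detection and gene pairs in hepatocyte-like nuclei were not run at 2. Hepatocyte-like shares rest on these rebuilt names.

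Counts were summed per mouse and tested with edgeR 4.0.16 (TMM, filterByExpr, quasi-likelihood test) over 8 mice in 3 groups, adjusted by Benjamini-Hochberg, with calls at 0.05. DESeq2 1.42.0 was an alternative. The edgeR fit was run on simulated counts with 200 changed genes, the same spread for every gene and no atypical library, unlike these data. Thinning and odds ratios were run on separate simulated nuclei. The p-values set group differences against the spread between mice, which with 1 RD tumour mouse left comes from the other groups. Group differences in co-detection used two-sided exact permutation tests over mice. A p of 0.1 is the smallest that 3 against 3 mice allow. Odds ratios had 0.5 added to each cell. Named genes were all 10 members. In each list they were the 2 genes with the largest change at a mean of at least 10 CPM, since none passed, and the 5 nearest genes of each member. Not all of these are reported here. Comparisons share mice: RD tumour-free and RD tumour each enter 2 of the 3. GENCODE M21 (GRCm38) gave positions and RefSeq the promoters, matched by symbol for 5 of 10 members. Alternatives were the tool, scaling, filters, groups fitted, replicate block, thinned depth and each mouse left out.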

Additional observations from a re-analysis of the deposited data

How the results depend on the processing

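No member passed edgeR's threshold in the 3 comparisons as reported, in whole libraries or hepatocyte-like nuclei. Across settings other than leaving out a mouse, 431 of 450 member fold changes kept their direction and side of the threshold, and 2 passed it, both for Oat with DESeq2. Leaving out a mouse, 427 of 480 did so. DESeq2 called 64, 36 and 109 genes in whole libraries and 682, 38 and 496 in hepatocyte-like nuclei for RD tumour against RD tumour-free, WD tumour against RD tumour-free and WD tumour against RD tumour, where edgeR called 0. Leaving out each mouse, the edgeR counts ran from 0 to 4569, 0 to 0 and 0 to 4438 in whole libraries and from 0 to 6081, 0 to 0 and 0 to 5841 in hepatocyte-like nuclei, and the high values came with RD tumour 1 as the only RD tumour mouse. Scaling without TMM moved the median of all genes in hepatocyte-like nuclei to 0.14 for RD tumour against RD tumour-free and −0.14 for WD tumour against RD tumour.

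Fold changes turned sign in 17 cases, all from values smaller than their standard error, and the cause was not tested. For RD tumour against RD tumour-free in whole libraries, without TMM, Hal was 0.075. In hepatocyte-like nuclei, Rhbg was 0.039 with DESeq2, and Rhbg, Sds and Arg1 were 0.12, 0.12 and 0.036 without TMM. The hepatocyte-marker threshold of 2, chosen after seeing the data, gave Slc1a2 0.079 and Rhbg 0.30, and Slc1a2 0.39 for WD tumour against RD tumour-free. With at most 5% mitochondrial UMIs in whole libraries, Cps1 was 0.017 for WD tumour against RD tumour-free and Sds 0.18 for WD tumour against RD tumour. With no filter on low counts, Ass1 was 0.080 and Sds 0.027 for WD tumour against RD tumour in hepatocyte-like nuclei.

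Replicate numbers did not pair the mice: correlations of same-numbered deviations ran from −0.61 to 0.46 over 7 pairs, 3 of them above 0.1, and 1 of 8 mice correlated best with its own number. With the replicate block, edgeR called 0 genes in each comparison, Sds, Arg1 and Hal were 0.11, 0.016 and 0.040 in whole libraries, and Sds was 0.088 in hepatocyte-like nuclei, for RD tumour against RD tumour-free. Slc1a2 was 0.044 for WD tumour against RD tumour-free in hepatocyte-like nuclei.

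Leaving out each mouse turned the sign of 31 member differences at least once. For RD tumour against RD tumour-free in whole libraries, the ranges were −3.54 to 0.020 for Slc1a2, −0.51 to 0.17 for Sds, −0.45 to 0.10 for Arg1, −2.11 to 0.75 for Hal and −1.03 to 0.94 for Gls2. In hepatocyte-like nuclei they were −2.11 to 0.15 for Glul, −2.96 to 0.41 for Slc1a2, −1.38 to 0.61 for Rhbg, −0.31 to 0.24 for Sds, −0.29 to 0.0079 for Arg1, −1.72 to 0.56 for Hal and −0.63 to 0.67 for Gls2. For WD tumour against RD tumour-free in whole libraries, they were −0.47 to 0.22 for Cps1, −0.082 to 0.28 for Glul, −0.26 to 0.73 for Ass1 and −1.07 to 0.27 for Sds. In hepatocyte-like nuclei they were −0.37 to 0.20 for Cps1, −0.077 to 0.76 for Ass1, −0.36 to 0.078 for Slc1a2 and −0.87 to 0.35 for Sds. For WD tumour against RD tumour in whole libraries, they were −0.65 to 0.28 for Ass1, −0.40 to 3.16 for Slc1a2, −0.90 to 0.46 for Sds, −0.42 to 0.054 for Arg1, −2.10 to 0.76 for Hal and −1.49 to 0.48 for Gls2. In hepatocyte-like nuclei they were −0.46 to 0.32 for Ass1, −0.52 to 2.83 for Slc1a2, −0.80 to 0.44 for Sds, −1.97 to 0.29 for Hal and −1.26 to 0.025 for Gls2. Oat kept its direction throughout, at 1.15 to 1.86, −0.85 to −0.45 and −2.54 to −1.84 in hepatocyte-like nuclei.

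The co-detection difference by tumour status kept its direction in all 7 other settings. Leaving out a mouse, it ran from 0.54 to 0.78, where the smallest possible p is above 0.05. Its unadjusted exact permutation p was 0.036 with doublet calls removed and 0.071 to 0.32 in the remaining settings. The order of mice by tumour status was kept with doublet calls removed and lost in the remaining settings. At 1000 UMIs, RD tumour 2 was at −1.06 against −0.84 and −0.80 in RD tumour-free 1 and 2. With no thinning, WD tumour 2 and 3 were at 0.093 and 0.11 against 0.16 in RD tumour-free 1. With at least 2 UMIs, RD tumour 2 was at −1.80 against −1.75 in RD tumour-free 2. With at most 5% mitochondrial UMIs, WD tumour 3 was at −0.99 against −0.92 in RD tumour-free 3. Without Slc1a2, WD tumour 2 was at −0.83 against −0.72 and −0.69 in RD tumour-free 2 and 3. The shares were less stable. Pericentral-only nuclei by tumour status differed by 2.15 points without thinning, 0.997 in hepatocyte-like nuclei and 0.905 without Slc1a2 (−2.64 to 1.36 leaving out a mouse), and by diet by −1.10 in hepatocyte-like nuclei and −1.12 with at most 5% mitochondrial UMIs (−0.18 to 4.74). Nuclei positive for both sets by tumour status differed by −0.345 points at 1000 UMIs, −7.28 without thinning and −0.116 with at most 5% mitochondrial UMIs (−1.04 to 0.93), and by diet by 0.0078 with at least 2 UMIs (−1.32 to 0.85). Depth limits Rhbg, with 6 to 60 UMIs in the hepatocyte-like nuclei of a mouse.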
